A study of Mus musculus with 140 samples.

Results

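The 9 genes described here encode transporters that move organic anions and cations across the kidney tubule: Slc22a2, Slc22a6, Slc22a7, Slc22a8, Slc22a12, Slco1a1, Slc47a1, Abcc2 and Abcc4. They were chosen by gene name, with earlier results of these data known, and all 9 are among the 34255 genes of the deposited count table. Shares of all genes set beside the members are therefore a description. RNA came from 28 wild-type male mice of the strain C57BL6/OlaHsd, in 7 groups of 4. These were mice 4, 24 or 72 h after CLP (cecal ligation and puncture, which gives a polymicrobial sepsis), mice 4, 24 or 72 h after a sham operation, and healthy mice at 0 h. Each mouse gave 5 libraries of 3′ end sequencing, 140 in all: whole kidney, not microdissected, and 4 compartments cut out by laser microdissection, namely peritubular capillaries, post-capillary venules, glomeruli and arterioles. The labels give neither the age of the mice nor whether animals shared a cage or surgery day.

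Proximal tubule cells clear drugs, toxins and metabolites by taking them up from blood at the basolateral membrane and passing them into urine at the apical membrane. Slc22a2 (OCT2) takes up cations at the basolateral side, and Slc22a6 (OAT1) and Slc22a8 (OAT3) take up anions there in exchange for dicarboxylates. On the apical side, Slc47a1 (MATE1) exports cations against protons, Slc22a12 (URAT1) exchanges urate for other anions, and Abcc2 (MRP2) and Abcc4 (MRP4) are ATP-driven exporters of conjugates and other anions. Slc22a7 (OAT2) carries anions and nucleotides. Slco1a1 (Oatp1a1) is an organic anion transporter of mouse liver and kidney whose renal mRNA depends on androgen.

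In GENCODE M21 (build GRCm38), Slc22a8 (8591254 to 8611835) and Slc22a6 (8618039 to 8628299) lie 6203 bases apart on the plus strand of chromosome 19, which also carries Slc22a12 (6535845 to 6543032, minus strand) and Abcc2 (43782192 to 43840740, plus strand). Chromosome 17 carries Slc22a2 (12584132 to 12628488, plus strand), and Slc22a7 (46432183 to 46438457, minus strand). Slco1a1 is on chromosome 6 (141907282 to 141946962, minus strand), Slc47a1 on chromosome 11 (61343401 to 61378345, minus strand) and Abcc4 on chromosome 14 (118482692 to 118706219, minus strand). All 9 are protein-coding. Slc22a12 lies within the span of Nrxn2 on the opposite strand, and whether reads were counted by strand is not given in the sources used here. Its last 300 bases also had matches in 353 other genes, the best of them over 92 bases with 92.4% identity, so its counts may be shared and are less certain than those of the others. Shorter or weaker matches were found for Slc22a8 (62 bases, 83.9% identity) and Slco1a1 (268 bases, 66.8% identity). The last 300 bases of Slc22a2, Slc22a6, Slc22a7, Slc47a1, Abcc2 and Abcc4 matched no other gene.

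Promoters of the neighbours Slc22a6 and Slc22a8 and of Slco1a1, which fell the most of the members with a promoter entry, are shown from 250 bases before to 50 after the RefSeq start (build GRCm38.p6), 5′ to 3′ on the strand of the gene. They are at chr19:8617746-8618045 (plus), chr19:8592932-8593231 (plus) and chr6:141946913-141947212 (minus). For Slc22a8 the RefSeq start lies inside the GENCODE gene.
Slc22a6: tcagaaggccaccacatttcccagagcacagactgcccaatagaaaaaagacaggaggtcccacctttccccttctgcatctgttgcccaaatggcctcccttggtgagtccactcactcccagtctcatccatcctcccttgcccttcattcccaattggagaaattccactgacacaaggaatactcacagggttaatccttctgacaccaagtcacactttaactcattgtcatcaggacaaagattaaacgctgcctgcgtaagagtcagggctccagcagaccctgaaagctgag
Slc22a8: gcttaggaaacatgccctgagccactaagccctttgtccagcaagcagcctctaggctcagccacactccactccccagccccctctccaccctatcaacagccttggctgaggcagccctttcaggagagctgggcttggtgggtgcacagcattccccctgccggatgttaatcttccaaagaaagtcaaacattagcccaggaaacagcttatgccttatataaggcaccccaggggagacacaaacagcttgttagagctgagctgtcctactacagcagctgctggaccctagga
Slco1a1: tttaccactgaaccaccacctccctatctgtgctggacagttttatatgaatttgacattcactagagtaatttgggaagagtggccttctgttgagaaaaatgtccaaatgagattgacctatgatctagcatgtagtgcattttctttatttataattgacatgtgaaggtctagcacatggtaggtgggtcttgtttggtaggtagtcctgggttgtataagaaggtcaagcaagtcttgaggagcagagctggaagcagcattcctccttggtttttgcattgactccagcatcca
The letters CAAAGTCCA, a form of the site of HNF4, a nuclear receptor family of liver and proximal tubule, were searched on both strands. They were in the promoters of 0 of the 7 members with a RefSeq entry (8 promoters in all), against 0.475% of all 32851 promoters of that table, which says only that these letters are not in this window. A search for the letters GTTAAT, part of a site of the factor HNF1, was also planned and is not reported here.

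Whole kidney libraries held 4.78 to 16.3 M counts and 17604 to 20474 detected genes, and every member had counts in all 28 of them. Levels are given in CPM, the count relative to the library total after that total was scaled by TMM (the trimmed mean method of edgeR), for the 4 mice of a group in the order of their replicate numbers. The same number in another group is another mouse. Because each read marks the 3′ end of a transcript and its capture can differ by gene, levels are compared between groups of a gene and not between genes. In whole kidney, fewer tubule cells and less RNA per cell cannot be told apart. Differences were tested across all genes with the quasi-likelihood test of edgeR, and a gene was called when its p, adjusted by the Benjamini-Hochberg method, was under 0.05.

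The question asked of whole kidney was whether CLP changed the transporters relative to sham surgery at the same time. At 4 h it changed none of them detectably. At 24 h, mRNA of 5 of the 9 transporters fell, and at 72 h that of 6, while none of the 9 rose. Slc22a2, Slc22a7, Slco1a1 and Slc47a1 were called at both times, Slc22a8 at 24 h, Slc22a6 and Slc22a12 at 72 h, and Abcc2 and Abcc4 at neither. Among all 14936 genes tested, 2.24% were called lower and 3.04% higher at 24 h, and 2.15% lower and 1.74% higher at 72 h. The median log2 fold change of the 9 members was -0.64 at 24 h and -0.68 at 72 h, beside 0.02 and 0.03 for all genes.

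The basolateral cation carrier Slc22a2 had 355, 318, 319 and 421 CPM in CLP mice at 24 h, against 486, 560.4, 585 and 641 CPM in sham mice. At 72 h Slc22a2 had 267, 202, 414 and 304 CPM in CLP mice, against 457, 525, 572 and 569.8 CPM in sham mice. All 4 CLP mice lay below all 4 sham mice at both times. It fell by 36.01% at 24 h (log2 fold change -0.64, SE 0.15, adjusted p 0.00801), and it fell by 43.5% at 72 h (-0.82, SE 0.15, adjusted p 7.96e-04). At 4 h the ranges overlapped, with 749.8, 794, 718 and 666 CPM in CLP mice and 605, 750.3, 658 and 829 CPM in sham mice.

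**Figure D1:**
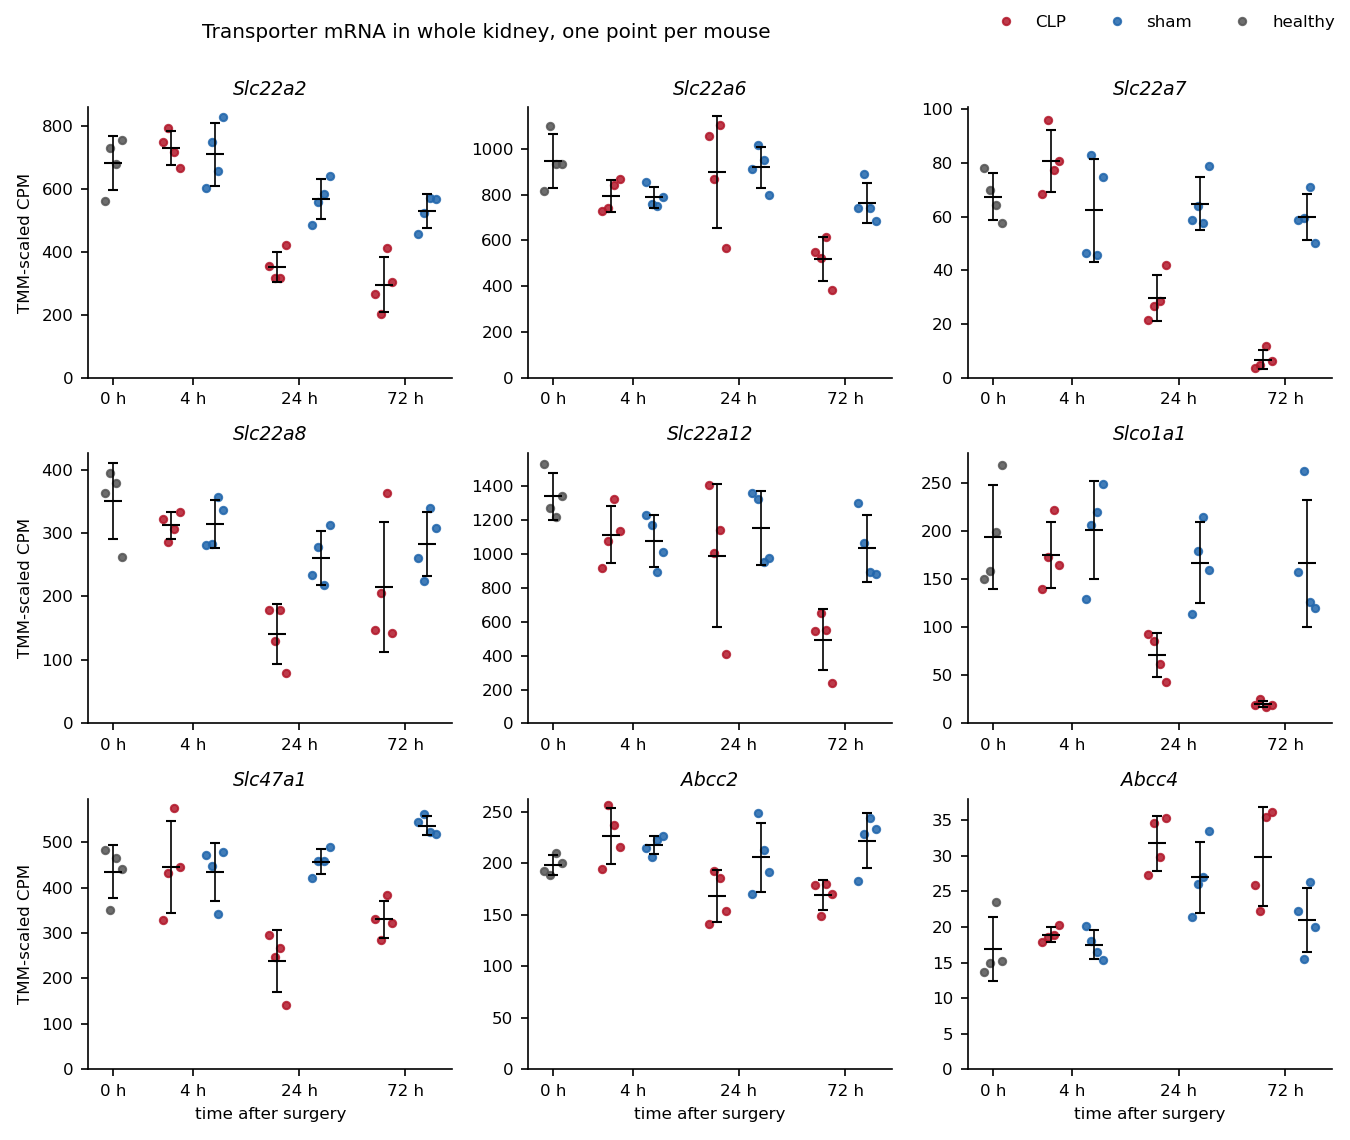
Level of each of the 9 transporters in whole kidney, as CPM of the TMM-scaled library total (vertical axes, starting at 0), by hours after surgery; each point is 1 mouse, and the bars show the group mean and 1 SD. Slc22a7 and Slco1a1 in CLP mice are lowest at 72 h, where Slc22a7 has 3.83 to 11.9 CPM and Slco1a1 17.6 to 25.0 CPM, below every sham and healthy mouse.

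The basolateral anion carriers Slc22a6 and Slc22a8, although neighbours, were called at different times. Slc22a6 had 1058, 869, 1104 and 566 CPM in CLP mice at 24 h, against 911, 1016, 949 and 799 CPM in sham mice, and was not called (log2 fold change 0.01, 95% interval -0.29 to 0.31). At 72 h Slc22a6 had 549, 523, 614 and 384 CPM in CLP mice, against 740.5, 889, 739.6 and 683 CPM in sham mice, with no overlap. It fell by 31.5% (-0.55, SE 0.15, adjusted p 0.0339). Slc22a8 had 178, 129, 179 and 78.8 CPM in CLP mice at 24 h, all below the 235, 278, 218 and 312 CPM of sham mice, and fell by 44.2% (-0.84, SE 0.24, adjusted p 0.0395). At 72 h it had 148, 205, 363 and 143 CPM in CLP mice, against 261, 225, 339 and 308 CPM in sham mice. Replicate 3 of the CLP mice was above every sham mouse, and the difference was not called (-0.39, 95% interval -0.86 to 0.09, adjusted p 0.546). Whether the CLP effect differed between the pair of genes was not tested. The call for Slc22a8 at 24 h was lost without CLP replicate 2 or 4 or sham replicate 1, 2 or 4 (log2 fold changes over all mice left out -0.98 to -0.64, adjusted p up to 0.146), and Slc22a8 at 72 h was called without CLP replicate 3 (-0.77, adjusted p 0.0316). That for Slc22a6 at 72 h was lost without CLP replicate 2 or 4 or sham replicate 1, 2 or 3 (-0.64 to -0.43, adjusted p up to 0.166).

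The largest falls among the members were those of Slc22a7 and Slco1a1. Slc22a7 had 21.6, 26.9, 28.5 and 42.1 CPM in CLP mice at 24 h, against 58.7, 64.0, 57.7 and 79.1 CPM in sham mice. At 72 h CLP mice were lower still, with 3.83, 4.83, 11.9 and 6.37 CPM, against 58.7, 59.4, 71.2 and 50.1 CPM in sham mice. It fell by 52.9% at 24 h (log2 fold change -1.08, SE 0.23, adjusted p 0.00375) and fell by 88.6% at 72 h (-3.14, SE 0.27, adjusted p 4.57e-09). At 4 h it had 68.6, 96.1, 77.5 and 80.8 CPM in CLP mice, against 46.4, 82.8, 45.8 and 74.9 CPM in sham mice, and was not called (0.38, adjusted p 0.644).

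Slco1a1 had 93.4, 85.4, 62.2 and 42.9 CPM in CLP mice at 24 h, against 114, 179, 215 and 159.7 CPM in sham mice. At 72 h it had 18.8, 25.0, 17.6 and 19.1 CPM in CLP mice, against 157, 263, 126 and 119.6 CPM in sham mice. No CLP mouse reached the lowest sham mouse at either time, and at 72 h the CLP mice were close together (20.1 ± 3.34 CPM, SD, n = 4) while sham mice were spread (166 ± 66.2 CPM, SD, n = 4). It fell by 56.3% at 24 h (-1.19, SE 0.26, adjusted p 0.00536) and fell by 87.7% at 72 h (-3.03, SE 0.29, adjusted p 6.73e-08).

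Of the apical carriers, the cation exporter Slc47a1 had 296, 247, 268 and 141 CPM in CLP mice at 24 h, against 421, 458, 459 and 489 CPM in sham mice. At 72 h Slc47a1 had 331, 285, 384 and 321 CPM in CLP mice, against 544, 562, 523 and 518 CPM in sham mice. The groups did not overlap at either time. It fell by 46.4% at 24 h (-0.90, SE 0.17, adjusted p 5.70e-04) and fell by 37.7% at 72 h (-0.68, SE 0.17, adjusted p 0.0111). The 72 h call was lost without CLP replicate 2 (-0.62, adjusted p 0.0615).

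The urate exchanger Slc22a12 had 1405, 1004, 1142 and 411 CPM in CLP mice at 24 h, against 1361, 1325, 953 and 977 CPM in sham mice, and was not called (-0.18, 95% interval -0.71 to 0.35). At 72 h Slc22a12 had 544, 651, 549 and 237 CPM in CLP mice, all below the 1302, 1063, 892 and 880.4 CPM of sham mice. It fell by 51.7% (-1.05, SE 0.27, adjusted p 0.0252). That call was lost without CLP replicate 4 or sham replicate 1 or 2 (-1.21 to -0.82 over all mice left out, adjusted p up to 0.0913).

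Neither of the ATP-driven exporters was called. Abcc2 had 179, 149, 180.0 and 169.9 CPM in CLP mice at 72 h, against 183, 228, 244 and 233 CPM in sham mice; the groups did not overlap, but the difference was not called (-0.37, 95% interval -0.62 to -0.13, adjusted p 0.09999). Without sham replicate 1, the lowest of its group, it was called (-0.46, adjusted p 0.0367). Abcc4 was the member with a higher mean in CLP mice at all 3 times, and none of these differences was called. At 72 h it had 25.9, 22.2, 35.4 and 36.1 CPM in CLP mice, against 22.3, 15.4, 26.3 and 20.01 CPM in sham mice (0.53, 95% interval 0.16 to 0.89, adjusted p 0.13).

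**Figure D2:**
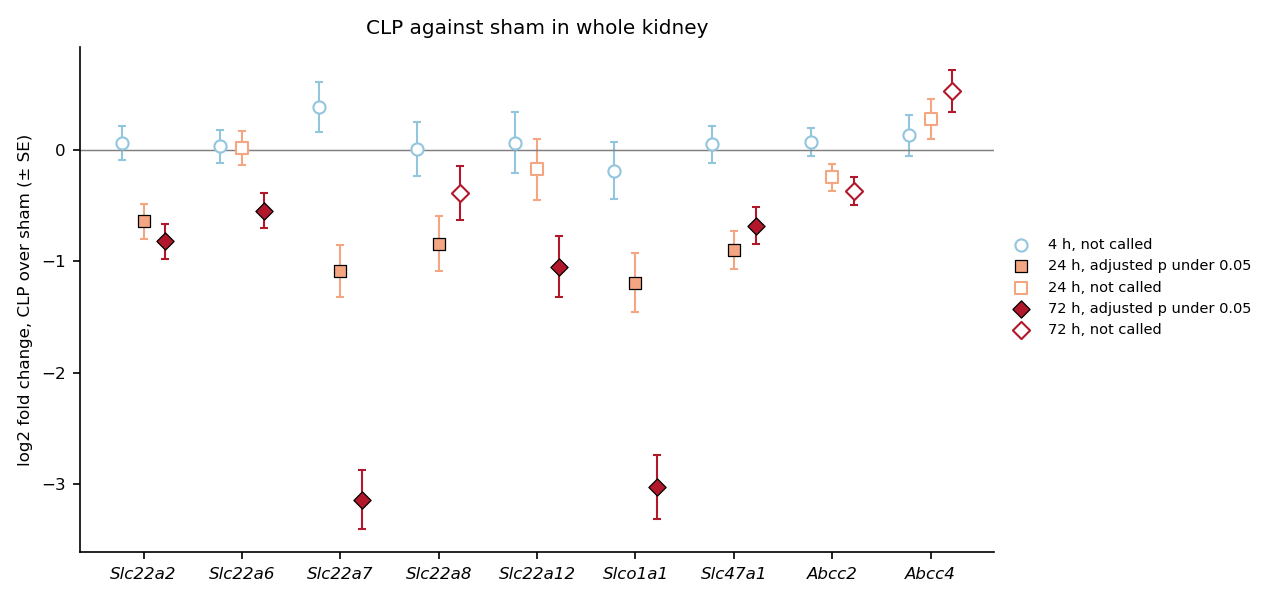
Log2 fold change, CLP over sham, of each transporter in whole kidney at 4, 24 and 72 h (points, filled where the adjusted p was under 0.05, with bars of 1 SE from the edgeR fit). At 4 h all 9 values lie between -0.19 and 0.38, and at 72 h Slc22a7 (-3.14) and Slco1a1 (-3.03) lie farthest below 0.

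At 4 h none of the 9 members was called, against 2.24% of all genes. None of them had an unadjusted p under 0.05, against 1537 of all 14936 genes, and DESeq2 also called 0 members. Their log2 fold changes ran from -0.19 for Slco1a1 to 0.38 for Slc22a7, with SEs from 0.12 to 0.27, so changes of the size seen at 72 h in Slc22a7 or Slco1a1 lie outside the 95% intervals at 4 h (-0.06 to 0.83 for Slc22a7 and -0.69 to 0.32 for Slco1a1).

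In whole kidney, all 4 CLP values lay below all 4 sham values for 5 members at 24 h, against 4.97% of all genes, and for 7 members at 72 h, against 5.44% of all genes. In the single mice named here, several members moved together, but not all of them. Replicate 4 of the CLP mice at 24 h was the lowest of its group in 5 members (Slc22a6, Slc22a8, Slc22a12, Slco1a1 and Slc47a1) and the highest in 3 (Slc22a2, Slc22a7 and Abcc4). Replicate 3 of the CLP mice at 72 h was the highest of its group in 6 members and the lowest in 1. Replicate 1 of the CLP mice at 4 h was the lowest of its group in 7 and the highest in 0.

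The change of the CLP effect over time was tested directly. From 4 to 24 h the log2 fold change of Slc22a7 fell by 1.47 (SE 0.33, adjusted p 0.0131) and that of Slc47a1 fell by 0.95 (SE 0.23, adjusted p 0.0275), against 1.84% of all genes called. From 24 to 72 h that of Slc22a7 fell by a further 2.05 (SE 0.35, adjusted p 0.00234) and that of Slco1a1 fell by 1.83 (SE 0.38, adjusted p 0.0177), against 0.509% of all genes. From 4 to 72 h Slc22a2 (-0.88), Slc22a7 (-3.52) and Slco1a1 (-2.84) were called, with adjusted p of 0.0209, 2.69e-07 and 4.46e-05, against 2.52% of all genes. These tests share groups and are not independent of each other. The other members were not called in any of the 3, so a difference in time course was not shown for them. The 95% intervals for the step from 24 to 72 h were -0.98 to -0.14 for Slc22a6 and -0.22 to 1.13 for Slc22a8.

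Sham mice were set against healthy mice. Whole kidney libraries had a median of 19396.5 detected genes at 0 and 4 h together, and of 18311 at 24 and 72 h together. For sham against healthy mice at 24 and 72 h, this difference between libraries cannot be told apart from an effect of surgery. At 4 h, 0 of the 9 members were called between sham and healthy (0.937% of all genes called, 0 members by DESeq2). An unadjusted p under 0.05 was found for 0 members and for 1364 of all 14936 genes. At 72 h also 0 were called (8.44% of all genes, 0 members by DESeq2). Here an unadjusted p under 0.05 was found for 2 members and for 4031 of all 14936 genes. For Slc47a1 at 72 h, all 4 sham mice (544, 562, 523 and 518 CPM) lay above all 4 healthy mice (483, 351, 465 and 440 CPM). The share of all genes with such a gap was not computed, so the gap is a description and not a result about the members. CLP mice at 72 h (331, 285, 384 and 321 CPM) overlapped the healthy mice in this gene. At 24 h the exporter Abcc4 was called. It had 21.4, 26.1, 27.1 and 33.5 CPM in sham mice, against 13.7, 14.9, 23.5 and 15.2 CPM in healthy mice, ranges that overlap at healthy replicate 3. It was 58.0% higher (log2 fold change 0.66, SE 0.18, adjusted p 0.0309), beside 3.41% of all genes called higher. The call was lost without healthy replicate 1, 2 or 4 or sham replicate 2, 3 or 4 (0.53 to 0.86 over all mice left out, adjusted p up to 0.135). Levels of Abcc4 in CLP mice at 24 h, 27.4, 34.6, 29.8 and 35.3 CPM, were also above those of all 4 healthy mice, and CLP and sham mice at 24 h overlapped. For this gap too, the share of all genes was not computed.

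Other genes of whole kidney moved at the same times. Of 18 proximal tubule markers, 8 fell at 24 h and 7 at 72 h in CLP mice relative to sham mice, and none rose. Slc7a13, an amino acid carrier of the straight proximal tubule, had log2 fold changes of -2.68 at 24 h and -1.81 at 72 h, and Cyp7b1, an oxysterol hydroxylase, of -0.95 and -1.23. Next to them were Miox (-1.28), the enzyme that opens myo-inositol, and the phosphate carrier Slc34a1 (-0.99) at 24 h, and the androgen-dependent Kap (-1.70) and the mitochondrial acyl-CoA synthetase Acsm2 (-0.92) at 72 h. The medians of the list were -0.43 at 24 h and -0.32 at 72 h. Summed over 17 markers, without the very abundant Kap, the level was 7262 to 14995 CPM in CLP mice at 24 h against 16743 to 18496 CPM in sham mice, and 11503 to 14998 CPM in CLP mice at 72 h against 18630.2 to 19561 CPM in sham mice. In an alternative chosen after the data had been seen, libraries were scaled to the mean log2 count of all 18 markers, Kap included, instead of by TMM. The median of all genes then moved to 0.75 at 24 h and 0.46 at 72 h. The genes called lower were 104 of 8674 at 24 h and 98 of 1233 at 72 h, beside 335 of 789 and 321 of 581 with TMM. Relative to the markers, none of the 5 falls at 24 h was called, Slc22a2 changed sign (0.15), and Slc22a6 (0.65), Abcc2 (0.50) and Abcc4 (1.05) were called higher. At 72 h Slc22a7 (-2.72) and Slco1a1 (-2.57) were still called lower relative to the markers, Abcc4 (0.96) was called higher, and the other falls were not called.

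**Figure D3:**
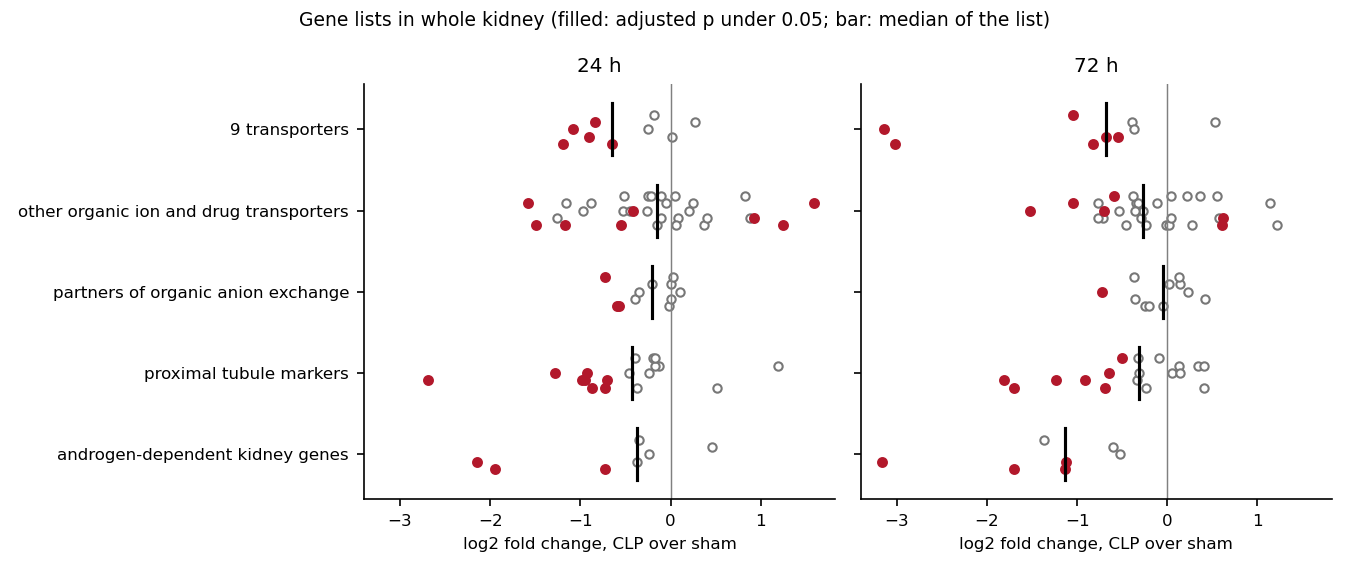
Log2 fold changes, CLP over sham, in whole kidney at 24 and 72 h (panels) for the 9 transporters and 4 other gene lists (rows), 1 point per gene, filled where the adjusted p was under 0.05, with a bar at the median of the list. The transporters have medians of -0.64 and -0.68 and the proximal tubule markers -0.43 and -0.32.

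Among 31 tested genes of 33 other organic ion and drug transporters, 3 rose and 5 fell at 24 h (median log2 fold change -0.15), and 2 rose and 4 fell at 72 h (median -0.27). The apical anion and urate carrier Slc17a3 fell at 24 h (-1.58) and 72 h (-1.04). Of the Slc22 family, Slc22a26 (-1.49) fell at 24 h and Slc22a30 (-1.53) at 72 h. Of the Slco family of organic anion carriers, Slco1a4 (1.59 at 24 h) and Slco2b1 (0.93 at 24 h and 0.62 at 72 h) rose, and Slco3a1 (-0.71) fell at 72 h. At 4 h Slco2b1 fell (-0.59) and no other gene of the list was called.

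Of 11 partners of anion exchange (among them dicarboxylate carriers, scaffolds and sodium pump subunits), 3 fell at 24 h and 1 at 72 h. The falls at 24 h were those of Pdzk1 (-0.73), a scaffold that binds tails of apical carriers, the sodium pump subunit Fxyd2 (-0.59) and the scaffold Slc9a3r1 (-0.57). Slc16a9, of the monocarboxylate carrier family, fell at 72 h (-0.72). Of 7 androgen-dependent kidney genes, 3 fell at 24 h and 4 at 72 h, with medians of -0.38 and -1.13. Those at 72 h were Acsm3 (-3.17), Kap (-1.70), Cyp2j13 (-1.13) and the polyamine enzyme Odc1 (-1.12). Of 13 tubular injury genes, 7 rose at 24 h and 2 at 72 h, with Lcn2, a secreted iron-siderophore binder, at 6.43 and 4.10. Of 10 tested leukocyte markers, 6 rose at 24 h and 8 at 72 h, among them the calprotectin genes S100a8 (6.78 at 72 h) and S100a9 (6.15 at 72 h). Summed over the 12 leukocyte markers, the level was 295 to 366 CPM in CLP mice at 24 h against 108 to 162 CPM in sham mice, and 572 to 900.2 CPM in CLP mice at 72 h against 97.9 to 122 CPM in sham mice. Of 10 loop, distal and collecting duct markers Slc12a1 fell at 24 h (-0.65) and Calb1 at 72 h (-0.80), of 8 erythrocyte and platelet markers 3 fell at 72 h, and of 7 fibroblast markers 1 rose at 24 h and 2 at 72 h. Of 8 smooth muscle and 8 podocyte markers 1 each rose at 72 h, Ren1 (1.12) and Cdkn1c (0.89), and of 5 tested hepatocyte markers Serpina1a rose at 24 h (1.54). None of 14 endothelial markers was called at 24 or 72 h (3 with an unadjusted p under 0.05 at each time). Of all 14936 genes, 2336 had such a p at 24 h and 2067 at 72 h. What part a change in the makeup of the tissue has in the falls of the transporters was not tested.

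Beside each member, the 2 other genes with the most similar levels over the 28 whole kidney libraries were found among the 10325 genes whose mean reached 5 CPM, by Pearson r of log2(CPM + 1). This is a description, since all points share the groups and the same libraries. Slc22a7 was closest to Tmigd1 (0.955), an adhesion protein of tubule cells, and Pank1 (0.946), a pantothenate kinase of coenzyme A synthesis. Pank1 was also the closest to Slc22a2 (0.898), followed by Serpinf2 (0.893). Slco1a1 was closest to Pzp (0.957) and the androgen-dependent Acsm3 (0.940). Slc22a6 was closest to Chpt1 (0.850) and Ephx2 (0.845), Slc22a8 to Slc7a13 (0.870) and Slc22a18 (0.869), Slc22a12 to Mogat1 (0.908) and Ttyh2 (0.900), Slc47a1 to Gcnt1 (0.909) and Akr1c21 (0.891), Abcc2 to Acsm2 (0.816) and Ddah1 (0.801), and Abcc4 to Fbp2 (0.847) and Cotl1 (0.832). Between members, r was highest for Slc22a7 with Slco1a1 (0.894), Slc22a2 with Slc22a7 (0.875) and Slc22a6 with Slc22a12 (0.872), and lower for the neighbours Slc22a6 and Slc22a8 (0.346). Abcc4 had negative r with all 8 others (-0.64 to -0.32).

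In healthy mice the transporters were read mainly in the peritubular capillary libraries. There, 8 of the 9 were higher than in the mean of the other 3 microdissected compartments of the same mice, against 3.52% of all genes called higher. Their log2 differences ran from 2.15 for Slc22a8 to 4.69 for Slco1a1, and Abcc4 was at 0.02 (SE 2.23). Slc22a2, for example, had 1336, 1406, 1230.3 and 2162 CPM in peritubular capillaries, against 249, 219, 228 and 315 CPM in post-capillary venules, 38.1, 14.8, 90.9 and 71.7 CPM in glomeruli and 11.99, 14.1, 242 and 65.2 CPM in arterioles (log2 difference 4.22, SE 0.40, adjusted p 1.69e-12). Slco1a1 was also high in this compartment, with 388, 424, 437 and 820.4 CPM in peritubular capillaries, against 54.9, 32.7, 40.05 and 4.81 CPM in post-capillary venules, 15.2, 4.15, 14.3 and 1.73 CPM in glomeruli and 4.47, 4.997, 24.0 and 80.0 CPM in arterioles (4.69, SE 0.65, adjusted p 1.84e-07). Slc22a12 had 3029, 2375, 2836 and 3095 CPM in peritubular capillaries and 1909.6, 2017, 1379 and 1378 CPM in post-capillary venules, where it was called higher than the mean of the others too (1.37, SE 0.32, adjusted p 0.0225, against 0.369% of genes), a call lost without healthy replicate 1, 2 or 4 (1.12 to 1.53 over all mice left out, adjusted p up to 0.292). The call for Slc22a7 in peritubular capillaries was lost without healthy replicate 1 or 3 (3.74 and 4.55, adjusted p 0.0800 and 0.0616).

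Except for Abcc4, glomeruli and arterioles had the lowest mean levels. In glomeruli 5 members were lower than in the mean of the others (1.38% of genes lower): Slc22a2 (-2.56), Slc22a6 (-2.39), Slc22a8 (-1.90), Slc22a12 (-1.61) and Slco1a1 (-2.99). In arterioles 4 were lower (2.38% of genes): Slc22a2 (-2.40), Slc22a6 (-1.81), Slc22a12 (-2.15) and Slc47a1 (-2.12). The median of all genes was 0.38 in glomeruli and -0.27 in arterioles, and with the size factors of DESeq2 in edgeR it was 0.26 and -0.03, with 197 of 936 called genes lower in arterioles, beside 290 of 891 with TMM, and with the same numbers of members called. Leaving out healthy replicate 4 left 2 calls in glomeruli, with those for Slc22a8 (-1.42), Slc22a12 (-1.21) and Slco1a1 (-2.30) lost. Slco1a1 in glomeruli was also lost without replicate 2 or 3, Slc22a12 also without replicate 1, and Slc22a6 in arterioles without replicate 1, 2 or 3 (-2.80 to -1.26 over all mice left out, adjusted p up to 0.0775).

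Against whole kidney of the same mice, 6 members were lower in glomeruli (2.07% of genes lower): Slc22a2 (-3.86), Slc22a6 (-3.24), Slc22a7 (-5.17), Slc22a12 (-1.92), Slco1a1 (-4.31) and Slc47a1 (-1.96). In arterioles 5 were lower (8.18% of genes lower): Slc22a2 (-3.66), Slc22a6 (-2.69), Slc22a12 (-2.32), Slco1a1 (-3.05) and Slc47a1 (-2.41). In glomeruli the calls for Slc22a7 (without healthy replicate 1 or 3), Slc22a12 (without 1) and Slc47a1 (without 3) were lost, with adjusted p up to 0.173, and in arterioles those for Slc22a6 (without 1) and Slco1a1 (without 1, 2 or 3), with adjusted p up to 0.0893. None was called in peritubular capillaries (0.174% of genes, 6 members with an unadjusted p under 0.05, 0 by DESeq2) or post-capillary venules (0.261% of genes, 2 with an unadjusted p under 0.05, 0 by DESeq2). Of all 13813 genes, 1837 had such a p in peritubular capillaries and 1430 in post-capillary venules. In peritubular capillaries 8 of the 9 differences from whole kidney were positive, from 0.86 to 1.7, and that of Abcc4 was -0.73. The order of mean levels for Slc22a2, Slc22a6, Slc22a7, Slc22a8, Slc22a12, Slco1a1, Slc47a1 and Abcc2 put peritubular capillaries at the top, and these libraries overlapped no other compartment in Slc22a2, Slc22a6, Slc22a12, Slco1a1, Slc47a1 and Abcc2. For Slc22a7 they overlapped whole kidney and post-capillary venules, and for Slc22a8 arterioles, where replicate 4 had 813 CPM. The share of all genes whose peritubular capillary values overlapped no other compartment was not computed, so the lack of overlap is a description. Arterioles and glomeruli had the lowest means in these 8 and overlapped in each of them except Slc22a8, which was higher in arterioles. Abcc4 had nearly the same mean in all 5 compartments (15.02 to 20.1 CPM), with overlap between all neighbours in the order. Its single values were spread, from 0.873 to 35.7 CPM in peritubular capillaries and from 0.231 to 35.6 CPM in glomeruli, against 13.7 to 23.5 CPM in whole kidney.

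**Figure D4:**
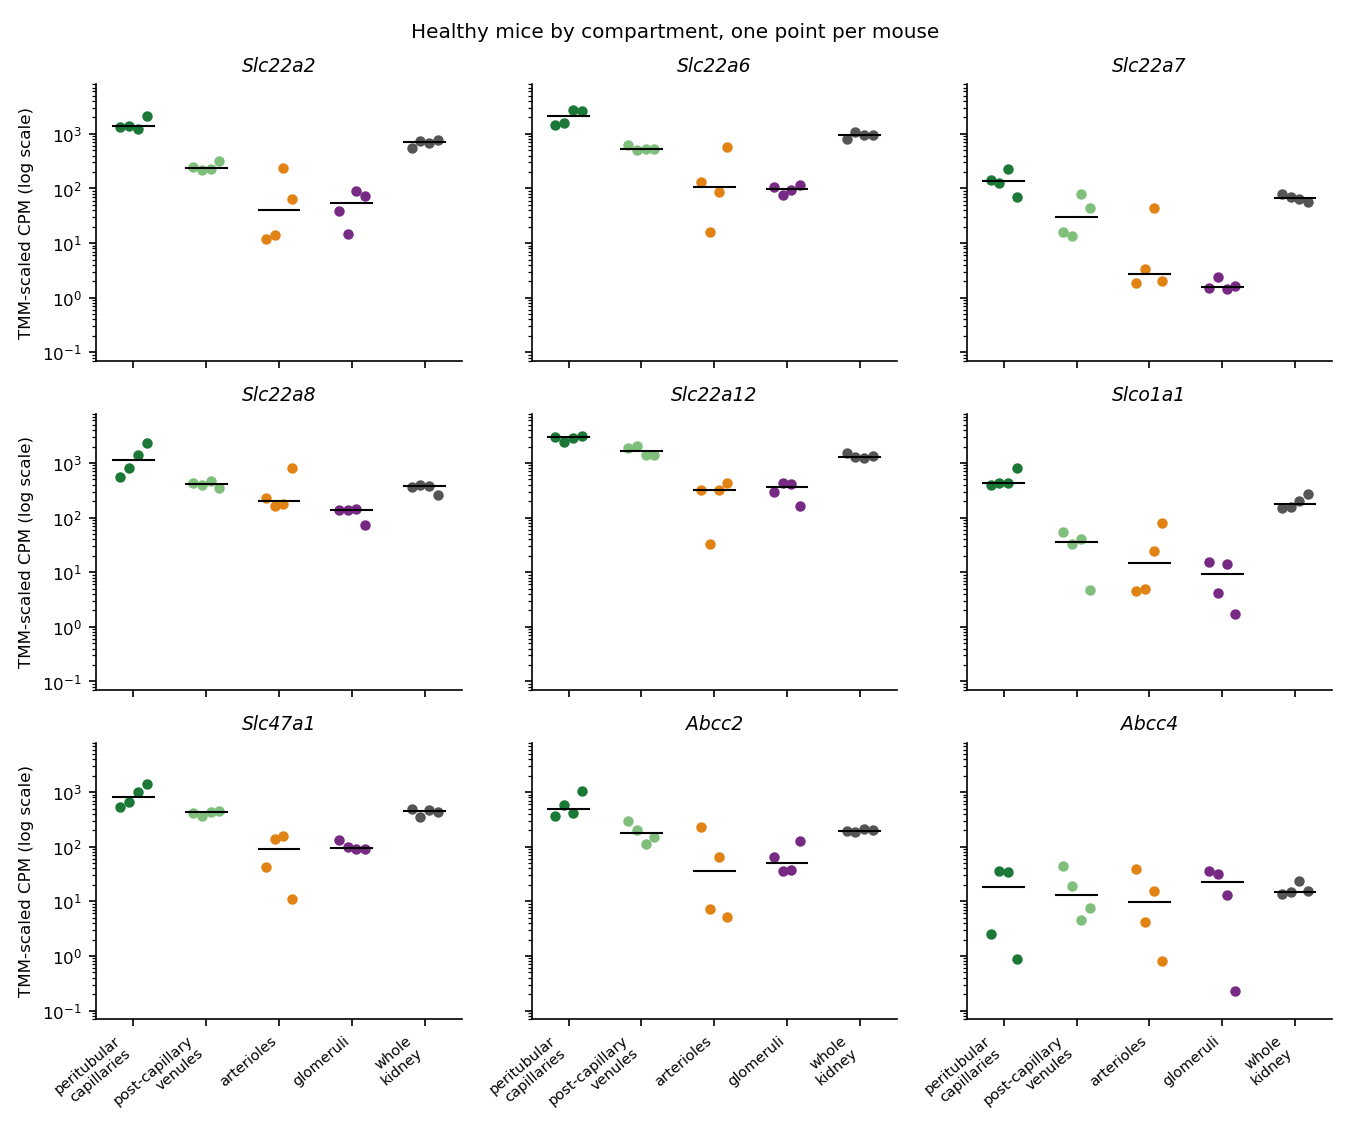
Level of each transporter in the 4 healthy mice by compartment, as CPM on a log scale, 1 point per mouse and a line at the median. Except for Abcc4, the peritubular capillary points are the highest on average, for Slco1a1 at 388 to 820.4 CPM against 150.3 to 268 CPM in whole kidney.

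The labels of the compartments were set against marker lists in the same healthy mice. All 8 podocyte markers were higher in glomeruli than in the mean of the others, and 6 of 8 smooth muscle and 6 of 14 endothelial markers in arterioles. In peritubular capillaries none of 14 endothelial markers was higher and 4 were lower, and 14 of 18 proximal tubule markers were higher. Without Kap, the tubule markers summed to 24909.7 to 42777 CPM in peritubular capillaries, 15586 to 20882.5 CPM in post-capillary venules, 5234 to 6355 CPM in arterioles, 3516 to 5255 CPM in glomeruli and 16512 to 17797 CPM in whole kidney, and none of them was at 0 in all 4 mice of a compartment. The 9 transporters summed to 7831 to 13520.5 CPM in peritubular capillaries, 3232 to 4024 CPM in post-capillary venules, 384 to 1974 CPM in arterioles, 646 to 902 CPM in glomeruli and 4177 to 4278 CPM in whole kidney. Both sums were highest in peritubular capillaries and lowest in arterioles and glomeruli. What part tubule cells cut with the vessels have in the transporter counts was not tested.

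CLP was set against sham in each microdissected compartment at each time, 12 comparisons with 108 values of members. Of all genes, 0.00821%, 0.0164% and 0% were called at 4, 24 and 72 h in arterioles, 0.11%, 0.137% and 0.0343% in glomeruli, 0%, 0.051% and 22.3% in peritubular capillaries, and 0%, 0.0813% and 0.0443% in post-capillary venules. A member was called in 1 of the 12. In post-capillary venules at 24 h, Slc47a1 had 118, 134, 248 and 240.2 CPM in CLP mice, against 600.1, 485, 639 and 427 CPM in sham mice, with no overlap (log2 fold change -1.54, SE 0.33, adjusted p 0.0278), beside 0.0591% of genes called lower and 1.32% with all CLP values below. The call was lost without any of CLP replicates 1, 2 and 3 or any of the 4 sham mice (-1.67 to -1.32 over all mice left out, adjusted p up to 0.366), and when the 8 libraries were fitted alone (-1.50, adjusted p 0.258). An unadjusted p under 0.05 was found for 17 of the 108 values. Of all genes, 384 (4 h) and 4344 (72 h) of 11772 had such a p in peritubular capillaries, the lowest and highest numbers of the 12 comparisons. CLP lay wholly below sham in 12 of the 108 values (11.1%) and wholly above in 1, against 2.08% and 1.42% of all gene values pooled over the 12 comparisons (1.07% to 7.89% below and 0.314% to 2.89% above in single comparisons). Those at 4 h, all with CLP below, were Slc22a12 in arterioles (-1.62), Slc22a8 (-0.84) and Abcc2 (-0.95) in peritubular capillaries and Slc22a7 in post-capillary venules (-2.13). By DESeq2, 9 of the 108 values (8.33%) were called, against 8.98% of all gene values, a share near the background.

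Slc47a1 was also below 0 at 24 h in the other compartments, with log2 fold changes of -0.74 in arterioles, -1.97 in glomeruli (84.4, 27.2, 39.8 and 30.6 CPM in CLP mice against 153, 264, 144 and 200.1 CPM in sham mice, no overlap, adjusted p 0.141) and -0.81 in peritubular capillaries. Slc22a8 at 24 h had 40.5, 0, 0.957 and 0 CPM in CLP glomeruli, against 208, 63.1, 158 and 219 CPM in sham glomeruli (adjusted p 0.333). In arterioles it had 0, 0, 1.40 and 0.0578 CPM in CLP mice, against 17.2, 27.6, 30.2 and 228 CPM in sham mice (adjusted p 0.124). In peritubular capillaries it had 102, 217, 232 and 185 CPM in CLP mice, against 529, 534, 339 and 829 CPM in sham mice (-1.61, adjusted p 0.131). The groups did not overlap in any of these 3 compartments, as for 3%, 1.07% and 1.9% of all genes with CLP below, and in post-capillary venules they did (-0.88, adjusted p 0.356).

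At 72 h, none of the values of Slc22a7 and Slco1a1 in the microdissected compartments was called. In post-capillary venules Slco1a1 had 13.2, 0, 14.3 and 0 CPM in CLP mice, against 164, 86.9, 20.7 and 83.3 CPM in sham mice, with no overlap (-3.62, SE 1.12, adjusted p 0.290, beside 1.15% of genes with CLP below). In peritubular capillaries it had 62.2, 0, 311 and 110.0 CPM in CLP mice, against 505, 687, 407 and 273 CPM in sham mice (-1.95, adjusted p 0.133). Slc22a7 had 0, 0, 7.77 and 77.8 CPM in CLP peritubular capillaries, against 85.5, 509, 275 and 0 CPM in sham ones (-3.42, SE 1.56, adjusted p 0.0873). In glomeruli it was at 0 in all 4 CLP mice, which allows up to 0.06001 CPM (3 counts of the 4 libraries' TMM-scaled total, counting error only), against 0.749, 6.39, 2.27 and 0 CPM in sham mice. Slco1a1 in glomeruli had 0, 0, 6.54 and 2.03 CPM in CLP mice, against 0.0681, 44.2, 0.108 and 0 CPM in sham mice, where 1 sham mouse was above all others and the groups overlapped. Slc22a7 in arterioles had 0, 5.89, 0 and 0 CPM in CLP mice, against 0, 56.6, 0 and 6.85 CPM in sham mice. In post-capillary venules it had 0, 8.20, 0 and 0 CPM in CLP mice, against 26.2, 19.5, 77.7 and 7.78 CPM in sham mice, overlapping at CLP replicate 2 (-3.97, adjusted p 0.315). In arterioles Slco1a1 was at 0 in all 8 mice at 24 h, and at 72 h it had counts in 1 sham mouse (59.9 CPM) and in no CLP mouse.

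Abcc2 in peritubular capillaries at 72 h lay the other way, with 647, 765, 1479.9 and 866 CPM in CLP mice, against 366, 393, 169 and 364 CPM in sham mice. The groups did not overlap (1.55, SE 0.71, adjusted p 0.0895), beside 0.314% of genes with CLP above and 7.89% with CLP below. In this comparison the CLP libraries detected 2949 to 5595 genes, against 7137 to 9816 in sham libraries. The library with 2949 genes, CLP replicate 1, was left out in an alternative fit. The outcome of that fit for Abcc2 is not given here, so it lends the difference no support. The part of the low detection in the CLP group as a whole was not tested. The median log2 fold change of all genes was -1.28 there, and with the size factors of DESeq2 in edgeR it was -0.90 and Abcc2 was called. Whether the CLP effect differed between the 4 microdissected compartments was tested in 1 model per time, and 0 members were called at 4, 24 or 72 h (0.021%, 0.161% and 1.48% of genes), with 3, 2 and 1 members at an unadjusted p under 0.05 and 0 by DESeq2 at each time. Of all genes, 830 of 14272, 686 of 13635 and 1643 of 13475 had such a p.

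**Figure D5:**
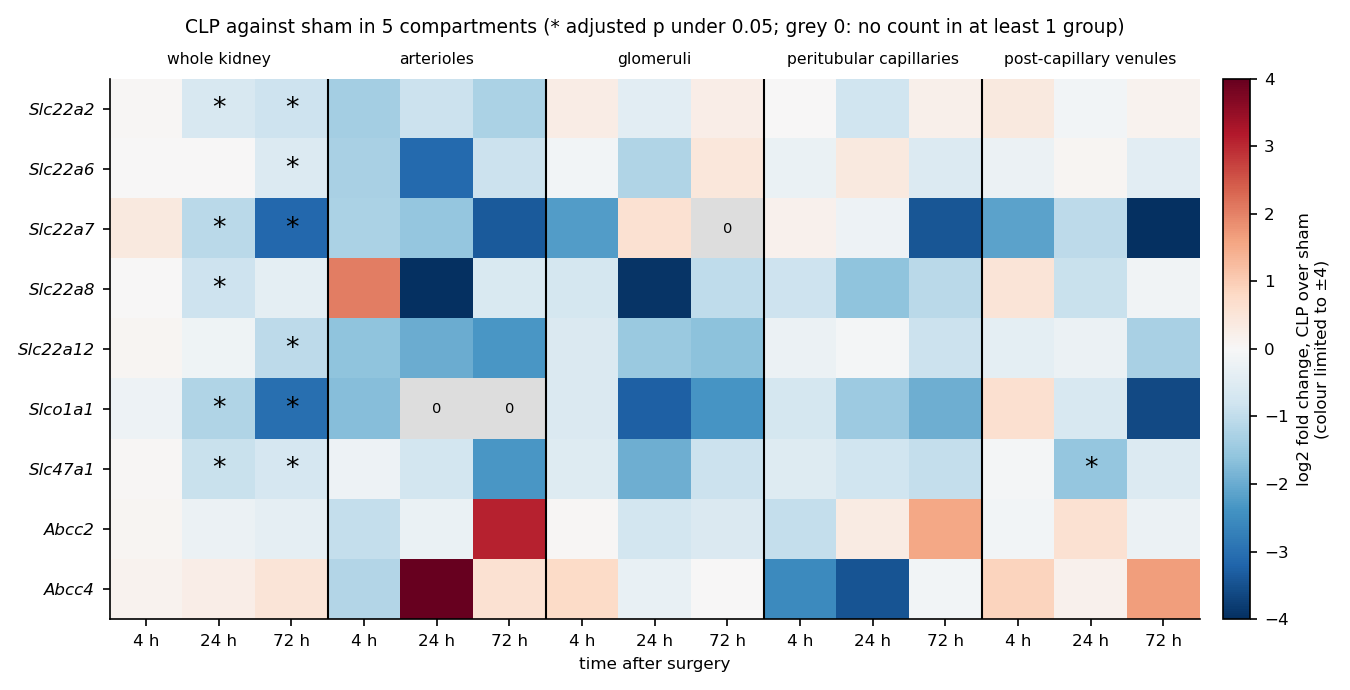
Log2 fold change, CLP over sham, of each transporter (rows) in the 5 compartments at 4, 24 and 72 h (columns), as colour limited to ±4; an asterisk marks an adjusted p under 0.05 and a grey 0 a group with no count. The asterisks are at 24 and 72 h in whole kidney and at Slc47a1 in post-capillary venules at 24 h.

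Of the 18 proximal tubule markers, 0 were called in arterioles at 24 or 72 h (4 and 2 with an unadjusted p under 0.05) and 0 in glomeruli at 72 h (2 with an unadjusted p under 0.05). Such a p was found for 1890 and 2100 of all 12183 genes in arterioles and for 1498 of 14586 in glomeruli. In glomeruli 1 marker fell at 24 h, in peritubular capillaries 1 at 24 h and 6 at 72 h, and in post-capillary venules 2 at 24 h and 1 at 72 h. Without Kap the markers summed in post-capillary venules to 7513 to 8780.4 CPM in CLP mice at 24 h against 12650 to 16027 CPM in sham mice, and to 13276 to 16635 CPM in CLP mice at 72 h against 19252 to 21388 CPM in sham mice. In peritubular capillaries they summed to 7521 to 16817 CPM in CLP mice at 24 h against 21526 to 29534 CPM in sham mice, and to 10278 to 14131 CPM in CLP mice at 72 h against 28300 to 31265 CPM in sham mice. At 24 h the sums were 781 to 3458 CPM in CLP glomeruli against 3766 to 7379 CPM in sham glomeruli, and 71.6 to 1088 CPM in CLP arterioles against 994 to 3540 CPM in sham arterioles. At 72 h they were 1351 to 4603 CPM in CLP glomeruli against 1458 to 6935 CPM in sham glomeruli, and 382 to 2025 CPM in CLP arterioles against 257 to 3289.9 CPM in sham arterioles. The CLP and sham sums overlapped in arterioles at both times and in glomeruli at 72 h, and did not overlap in the other pairs given here. Their part in the transporter values was not tested.

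The precision of the microdissected values was lower than that of whole kidney. The biological coefficient of variation of the edgeR fits was 0.241 in whole kidney, against 1.40 in glomeruli, 1.58 in post-capillary venules, 1.92 in arterioles and 1.94 in peritubular capillaries. Slco1a1 had no count in 15 of 28 arteriole libraries, Slc22a7 in 10 and Abcc2 in 9, and Abcc4 had none in 11 of 28 peritubular capillary libraries. All of these were CLP or sham libraries of 24 or 72 h. Median detected genes there were 8081 in arterioles and 6982 in peritubular capillaries, against 12611.5 and 12632.5 at 0 and 4 h. What part this lower detection has in the late values of 0 was not tested.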

How the data were processed

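The deposited table, made by the authors, holds whole-number counts of reads per gene for 140 libraries (Lexogen QuantSeq 3′, per the labels' protocols) and 34255 genes. The submitters' processing notes list STAR 2.7, SAMtools 1.9, HTSeq 0.13, featureCounts, MultiQC 1.7 and FastQC 0.11.8, and GRCm39 beside GRCm38.p6. The build behind the counts and the strand setting are not given in the sources used here. For the 20 healthy libraries the table gives 4 h where the labels give 0 h, and the labels were used.

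Levels are CPM of the library total scaled by TMM over all 140 libraries. Differences were tested in edgeR 4.0.16 (R 4.3.3; limma 3.58.1) with TMM, filterByExpr and the robust quasi-likelihood test, adjusted by Benjamini-Hochberg over all genes tested. CLP was set against sham in a fit of the 28 libraries of each compartment; compartments of healthy mice were compared with the mouse as a block. The SE of a log2 fold change is its size over the square root of F. Mice with the same number in different groups are different animals, and whether mice shared a surgery day is not given. The fits were tested on simulated data with known changes at 24 h. They missed nearly all of the changes in the microdissected compartments and part of them in whole kidney. The lack of a call, above all in a microdissected compartment, therefore does not show a lack of change. Alternatives were the normalization of DESeq2 and its own test (1.42.0), no filter on low counts, each mouse left out, the replicate number as a block, the 8 libraries of a comparison alone, and, chosen after the data had been seen, scaling to proximal tubule markers. In peritubular capillaries at 72 h, a fit without the library of few detected genes (CLP replicate 1) was a further alternative.

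The 9 members and the 14 other lists (176 genes) were chosen with earlier results of these data known, and 1 of these lists is not reported here. All members enter every comparison, and those called in the edgeR fits are named. Of each other list the text gives the number called and names up to 4 called genes of the largest log2 fold change whose mean reached 5 CPM, and for likeness the 2 genes of highest r. Positions come from GENCODE M21 and promoters from RefSeq; the 3′ ends were searched with blastn 2.17.0+. The 95% intervals of log2 fold changes were built from the SE described above with the normal distribution. They leave out the limited degrees of freedom of the fits, so they are approximate and may be too narrow. Totals ran from 4.24 to 18.3 M counts per library. Counts without molecular identifiers are not independent molecules, so limits from a count of 0 cover counting error only.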

Additional observations from a re-analysis of the deposited data

Results flagged for a closer look

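Of 63 groups of 4 mice in whole kidney tested for a mouse far from the others, 1 had such a mouse, and chance gives about 1 in 20 groups. It was healthy replicate 3 for the exporter Abcc4, with 23.5 CPM against 15.2 CPM in the next mouse of its group.

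The CLP effect (log2 fold change, CLP over sham) in whole kidney differed between times, by the test of the difference itself, in 4 members. For the nucleotide and anion carrier Slc22a7 the difference was -1.47 (24 h minus 4 h), -2.05 (72 h minus 24 h) and -3.52 (72 h minus 4 h). For Slco1a1 it was -1.83 (72 h minus 24 h) and -2.84 (72 h minus 4 h). For Slc22a2 it was -0.88 (72 h minus 4 h), and for Slc47a1 -0.95 (24 h minus 4 h). The 3 time differences share groups. The call for Slc47a1 was lost without CLP 4 h replicate 3, sham 24 h replicate 4 or sham 4 h replicate 3 (-1.06 to -0.76 over all mice left out, adjusted p up to 0.0909). That for Slco1a1 between 24 and 72 h was lost without CLP 72 h replicate 4 (adjusted p 0.0505), and that for Slc22a2 without CLP 72 h replicate 2, sham 4 h replicate 1 or 3 or sham 72 h replicate 3 (-1.08 to -0.73, adjusted p up to 0.0532).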

How the results depend on the processing

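Leaving out 1 mouse kept the calls for Slc22a2, Slc22a7, Slco1a1 and Slc47a1 at 24 h and for Slc22a2, Slc22a7 and Slco1a1 at 72 h in whole kidney, and the number of members called there ran from 4 to 5 at 24 h and from 4 to 7 at 72 h. It ran from 0 to 1 for sham against healthy at 24 h, from 1 to 3 for the CLP effect at 24 h minus 4 h, from 1 to 2 for 72 h minus 24 h, and from 2 to 3 for 72 h minus 4 h. In the microdissected compartments it ran from 0 to 1 in arterioles at 24 h, from 0 to 2 in glomeruli at 24 h, from 0 to 2 in peritubular capillaries at 72 h, from 0 to 1 in post-capillary venules at 24 h, from 0 to 1 for the difference between compartments at 4 h and from 0 to 3 at 24 h. In healthy mice it ran from 2 to 4 in glomeruli and from 0 to 1 in post-capillary venules. Uncalled values near 0 changed sign: at 4 h Slc22a2 (-0.021 to 0.12), Slc22a6 (-0.017 to 0.056), Slc22a8 (-0.055 to 0.075), Slc22a12 (-0.042 to 0.13) and Slc47a1 (-0.11 to 0.15), and at 24 h Slc22a6 (-0.11 to 0.18) and Slc22a12 (-0.40 to 0.079).

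With scaling to the proximal tubule markers, 3 members were called at 24 h, all higher and none of them among the 5 called with TMM, and 3 at 72 h, of which Slc22a7 and Slco1a1 were lower as with TMM and Abcc4 was higher. At 24 h it changed the sign of Slc22a2 (0.15), Slc22a12 (0.39) and Abcc2 (0.50), at 72 h that of Slc22a8 (0.011) and Abcc2 (0.047), and at 4 h that of Slc22a8 (-0.012), while all genes called numbered 169 at 4 h, 8674 at 24 h and 1233 at 72 h, against 335, 789 and 581. By construction it moves all genes by the fall of the markers. With no filter on low counts the call for Slc22a8 at 24 h was lost (adjusted p 0.115), as was that for Slc22a12 at 72 h (0.0638), and 1 member was called in arterioles at 24 h, 1 in glomeruli at 24 h, 1 in post-capillary venules at 72 h and 1 for the difference between compartments at 24 h. With the 8 libraries of a comparison alone, Slc22a8 at 24 h (0.13) and Slc22a12 at 72 h (0.0903) were not called, 0 members were called in post-capillary venules at 24 h, and Slc22a8 at 4 h was -0.0054. DESeq2 called 1 member in arterioles at 24 h, 1 in arterioles at 72 h, 1 in glomeruli at 24 h, 1 in glomeruli at 72 h, 1 in peritubular capillaries at 72 h, 3 in post-capillary venules at 72 h, and 0 in healthy post-capillary venules. Its size factors in edgeR called 1 in peritubular capillaries at 72 h (1032 genes in all, against 2625). The cause of these differences was not tested. In microdissected compartments DESeq2 called 85 to 4038 genes, against 0 to 2625 by edgeR.

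With the replicate number as a block, Slc22a6 at 24 h was -0.0029 and no call of a member in whole kidney changed (5 at 24 h, 6 at 72 h). In whole kidney, same-numbered CLP and sham mice deviated together (r over 0.1) in 0 of 4 pairs at 4 h, 3 of 4 at 24 h and 2 of 4 at 72 h. In each microdissected compartment it was 0 of 4 pairs at each time. Whether same-numbered mice of whole kidney shared a batch was not tested. The main fits did not pair the mice by number, because the same number in different groups is a different animal.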
